A study of Mus musculus with 21 samples.

Results

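Capillary endothelial cells were the cells that the authors' Harmony integration labelled as capillary endothelium, and they numbered 12614 of the 87822 cells in the tables. They came from tibialis anterior muscle of 21 female C57Bl/6J mice aged 20 months, with 1 mouse per library, and every mouse held at least 157 of them (median 427, highest 3081). The mice were uninjured (4 mice) or were taken after injury, with 4 mice at 1 day post-injury (dpi), 3 mice at 2 dpi, 4 mice at 3.5 dpi and 3 mice each at 5 and 7 dpi. Injury meant notexin, a snake venom phospholipase that kills myofibers and spares the precursors that rebuild them, injected into both tibialis anterior muscles. Uninjured mice serve as the reference throughout, and no separate vehicle injection is described in the labels. All libraries were 10x Chromium v3 single-cell RNA libraries, where transcripts are counted by their unique molecular identifiers (UMIs).

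Capillary endothelial cells line the smallest vessels of the muscle, run along the myofibers and exchange oxygen, nutrients and signals with them. They sit between arterioles, which carry arterial endothelium and a coat of smooth muscle, and venules, whose venous endothelium is the usual exit point of leukocytes. After a toxin injury the muscle first fills with immune cells, then with dividing progenitors, and the vessel network is remodelled while new myofibers form.

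The tables gave, for each cell, its labels, its number of UMIs after ambient RNA correction, the number of genes detected and the percent of its UMIs that came from gene classes such as heat shock protein, ribosomal protein or transcription factor genes. Single-gene values were not used here, so the usual endothelial markers Pecam1, Cdh5 and Kdr could not be compared with the label, and the genes behind each class were not given in the sources used here. Libraries held 974 to 10556 cells and 5602464 to 70730171 UMIs. Capillary cells carried between 1001 and 58932 UMIs and between 500 and 7376 genes, and 763 of them had fewer than 750 genes, the minimum stated in the study's methods. Barcodes of capillary cells were hardly shared between libraries (at most 2 in any of 210 pairs, 22 in all). The library of uninjured mouse B stood apart from its group in the capillary share of its endothelial cells. It also did so in its ratio of capillary to venous cells, and it had the lowest capillary share of all cells among uninjured mice. This is given with each result it touches.

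The first question was how much of the recovered cell population was capillary endothelium at each stage. In uninjured muscle, capillary cells made up 45.9%, 18.8%, 61.3% and 55.3% of all cells in mice A to D, or 45.3% ± 18.8 (SD, n = 4). Exact 95% intervals of single mice, which cover counting error only, ran from 17.5 to 20.2% for uninjured B and from 59.9 to 62.6% for uninjured C, so that the spread between uninjured mice was far wider than counting error. At 1 dpi the shares were 10.3%, 26.7%, 3.47% and 10.6%, and at 2 dpi they were 5.45%, 7.89% and 20.9%. Uninjured B lay below the highest mouse of each of these groups.

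The lowest shares were found at 3.5 dpi, with 6.74%, 8.82%, 2.82% and 4.18%, a mean of 5.64% ± 2.67 (n = 4). No mouse at 3.5 dpi reached the lowest uninjured mouse. At 5 dpi the mice held 3.70%, 10.0% and 16.1% capillary cells, again all below uninjured B. At 7 dpi the shares were 16.2%, 19.1% and 21.3%, or 18.9% ± 2.58 (n = 3), and this group overlapped with uninjured B alone.

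The share differed between the 6 groups (adjusted p = 0.00541, permutation F test over 21 mice). Shares of 78.3% of the 23 Harmony labels passed the same test, so a passing share was the usual case among labels. Against uninjured mice, the mean differences ran from -39.7 points at 3.5 dpi to -26.5 points at 7 dpi, and no single day passed the exact permutation test after adjustment (adjusted p from 0.0952 to 0.114). Among all labels and days, 46.1% of these comparisons passed. The smallest p that 4 against 4 or 4 against 3 mice can give is 0.0286. After adjustment over the 5 days, a day can pass only if most of the days reach this floor. A single day that did not pass is therefore no evidence of equal values.

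A share of all cells cannot tell fewer capillary cells from more cells of other kinds. Among non-immune cells, capillary cells made up 46.5% ± 19.1 (n = 4) in uninjured muscle, 36.8% ± 14.4 (n = 4) at 1 dpi and 45.1% ± 11.2 (n = 3) at 2 dpi. On the later days, 3.5 dpi had a mean of 23.4% ± 6.93 (n = 4), 5 dpi of 21.2% ± 6.25 (n = 3) and 7 dpi of 26.8% ± 3.75 (n = 3). With this denominator the difference over the time course did not pass (adjusted p = 0.136, permutation F test). No day passed against uninjured either (adjusted p from 0.286 to 0.886, exact permutation test), which is again no evidence of equal values. At 2 dpi the non-immune shares of 34.7%, 43.7% and 56.8% lay inside the uninjured range of 19.6 to 62.7%. At 3.5 and 5 dpi the highest mice, at 32.1% and 27.7%, lay above uninjured B but below the other uninjured mice.

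**Figure D1:**
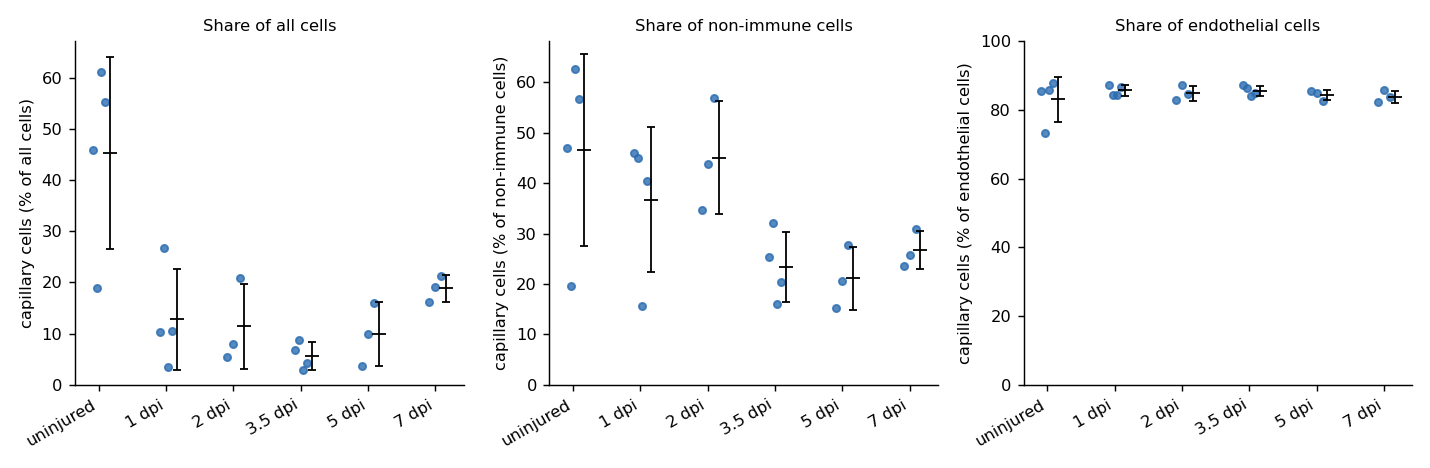
Capillary endothelial cells as a percent of all cells, of non-immune cells and of endothelial cells in each mouse (blue points), with the group mean and SD (black). The share of all cells averaged 45.3% before injury and 5.64% at 3.5 dpi, while the share of endothelial cells lay between 82.3% and 87.8% in all mice but uninjured B (73.4%).

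In transcripts rather than cells, capillary endothelium supplied 35.3%, 13.4%, 45.1% and 36.2% of the UMIs of uninjured mice A to D. At 3.5 dpi it supplied 1.85%, 2.96%, 1.06% and 2.49%, and at 7 dpi 13.7%, 11.8% and 15.03%. The 3.5 dpi values lay far under the lowest uninjured mouse, and 2 of the 3 mice at 7 dpi lay above it. These sums were not tested.

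Within the endothelium, the capillary share varied little between mice. Capillary cells were 85.5%, 73.4%, 85.9% and 87.8% of the capillary, arterial and venous cells of uninjured mice A to D. After injury all 17 mice lay between 82.3% and 87.3%, and the group means ran from 83.9% ± 1.74 at 7 dpi (n = 3) to 85.7% ± 1.45 at 3.5 dpi (n = 4). The share of endothelial cells differed by at most 2.58 points between any day and uninjured, less than the SD of 6.56 points between uninjured mice (adjusted p = 0.937, permutation F test). At 3.5 dpi the difference of 2.55 points became 11.2 points under a stricter filter on cells (adjusted p = 0.321, permutation F test) and -0.689 points without uninjured B (adjusted p = 0.464, permutation F test).

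Ratios to the neighbouring vessel cells were read as log2 values, and none of them passed over the time course. For each arterial cell there were 3.59 capillary cells in uninjured B and 6.98 to 8.69 in the other uninjured mice, against 6.61 to 10.9 in injured mice (adjusted p = 0.268, permutation F test). For each venous cell there were 11.9 capillary cells in uninjured B and 35.4 to 41.5 in the other uninjured mice, against 10.4 to 35.2 after injury (adjusted p = 0.523, permutation F test). The venous counts behind these ratios were small, with 6 to 87 cells per mouse. The ratio to smooth muscle cells, the contractile coat of larger vessels, ran from 2.64 in uninjured B to 15.3 in uninjured C and from 3.79 to 15.2 in injured mice (adjusted p = 0.621, permutation F test).

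The next question was whether the transcriptome of a typical capillary cell changed. For each mouse, the median over its capillary cells was taken for 10 measures, and 16 Harmony labels with enough cells in every group went through the same tests. Of all 160 pairs of label and measure, 45% passed over the time course, and in capillary cells 2 of 10 measures passed, the shares of heat shock protein and of mitochondrial genes. Of all comparisons of single days with uninjured, 5.75% passed, and capillary cells held 5 of them, all for heat shock protein genes.

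Heat shock proteins are chaperones that fold and protect other proteins and rise under many kinds of stress. In uninjured mice A to D, their genes supplied 0.567%, 0.681%, 0.615% and 0.641% of the UMIs of the median capillary cell, a mean of 0.626% ± 0.0480 (n = 4). At 1 dpi the values were 1.49%, 0.956%, 1.32% and 1.12%, a mean of 1.22% ± 0.232 (n = 4), or 1.95 times the uninjured mean. Every mouse at 1 dpi lay above every uninjured mouse. At this day 11 of the 16 labels had no overlap with uninjured mice in this share.

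On the later days the mean share of heat shock protein genes was lower than at 1 dpi, with every mouse still above the uninjured range when medians of all capillary cells were used. It was 1.18%, 0.878% and 0.734% at 2 dpi and 1.03%, 1.03%, 0.992% and 0.878% at 3.5 dpi. It was 1.02%, 0.995% and 0.701% at 5 dpi and 0.971%, 0.947% and 0.708% at 7 dpi. The group means at 2, 3.5 and 5 dpi were 1.49, 1.57 and 1.45 times the uninjured mean. None of these mice overlapped with the uninjured group, and mouse C of the 5 and 7 dpi groups came closest to it. Of the 16 labels, 6, 9, 5 and 2 had no overlap in this share at 2, 3.5, 5 and 7 dpi.

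The heat shock protein share passed over the time course (adjusted p = 0.0125, permutation F test) and at each of the 5 days (adjusted p = 0.0286 at each, exact permutation test). Over the time course the heat shock protein share passed in 9 of the 16 labels, venous endothelium among them, which went from 0.689% ± 0.112 (n = 4) before injury to 1.32% ± 0.256 (n = 3) at 1 dpi (adjusted p = 0.0175, permutation F test). By single days, capillary cells passed at all 5, and type IIb myonuclei, the nuclei of fast myofibers, passed at 4. In the order of the 16 labels, capillary cells had the fourth largest rise at 1 dpi and 5 dpi, the third largest at 2 and 3.5 dpi and the second largest at 7 dpi. At 7 dpi the median difference over the 16 labels was -0.00592 points, against 0.249 points in capillary cells.

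The single days depended on how the share was formed. When the percent was taken of non-mitochondrial UMIs, a setting chosen after seeing the data, the uninjured mice rose to 0.770% ± 0.0797 (n = 4) and the 1 dpi mice to 1.31% ± 0.208 (n = 4), still without overlap. With it the time course passed (adjusted p = 0.0281, permutation F test), but no day did (adjusted p from 0.0714 to 0.114, exact permutation test), and the groups overlapped at 3 of 5 days. With means over cells the time course did not pass (adjusted p = 0.119, permutation F test), nor did it under a stricter filter on cells (adjusted p = 0.0501). In each of these last settings no day passed (adjusted p from 0.143 to 0.2, exact permutation test) and the groups overlapped at 4 of 5 days, all but 1 dpi, where the difference was 0.634 points with means and 0.573 points with the filter. No day passed without any 1 uninjured mouse either (adjusted p = 0.1, exact permutation test), where 3 against 3 mice cannot give a smaller p.

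**Figure D2:**
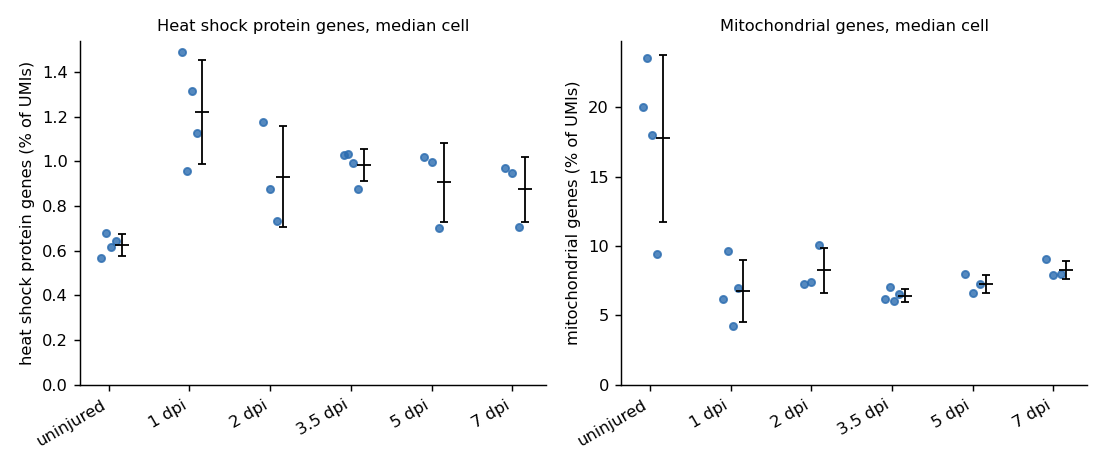
Percent of UMIs from heat shock protein genes and from mitochondrial genes in the median capillary cell of each mouse (blue points), with the group mean and SD (black). All 17 injured mice lay above 0.681% heat shock protein, the highest uninjured mouse, and 3 of 4 uninjured mice lay at 18.0% mitochondrial or more, above any injured mouse.

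Mitochondrial transcripts went the other way. Mitochondrial genes supplied 20.0%, 23.6%, 18.0% and 9.45% of the UMIs of the median capillary cell in uninjured mice A to D, or 17.8% ± 6.00 (n = 4). At 1 dpi the values were 6.18%, 9.66%, 4.22% and 6.96%, and 1 dpi B lay just above uninjured D. At 2 dpi the values were 7.23%, 7.38% and 10.1%, with 2 dpi C above uninjured D.

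The mitochondrial share stayed low to the end of the series. It was 6.16%, 7.04%, 6.01% and 6.51% at 3.5 dpi, with a mean of 6.43% ± 0.459 (n = 4). It was 7.95%, 6.62% and 7.24% at 5 dpi and 9.04%, 7.87% and 7.97% at 7 dpi, so that at 3.5, 5 and 7 dpi no mouse reached uninjured D. At these days 11, 10 and 7 of the 16 labels had no overlap with uninjured mice in this share. The time course passed (adjusted p = 0.0125, permutation F test), and no single day did (adjusted p from 0.0714 to 0.0857, exact permutation test).

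The lower mitochondrial share was seen beyond capillary cells. All 16 labels had a lower mean at each of the 5 days than in uninjured muscle, and 11 of 16 passed over the time course. By size in points, the difference in capillary cells was the largest of the 16 labels at 1, 3.5 and 7 dpi and the second largest at 2 and 5 dpi. It began from a high level, rank 3 of 16 in uninjured muscle (17.8%, against 14.6% in the median label). After injury the level of capillary cells ranked 6 to 8 of 16. At 3.5 dpi it was 6.43%, against 5.97% in the median label. The difference in capillary cells at 3.5 dpi came to -11.3 points, against a median of -7.07 points over the labels. Under the stricter filter on cells, which removed those over 15% mitochondrial, the 3.5 dpi difference was -5.26 points and the time course passed (adjusted p = 0.0103, permutation F test).

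Some library values also differed between uninjured and injured mice. Reads assigned to cells were 44.2 to 56.3% of all reads in uninjured libraries and 47.7% in 1 dpi B, but 66.5 to 94.8% in the other libraries. Reads in introns were 6.2 to 11.9% in uninjured libraries and 8.5 to 18.9% in injured ones. At 1 dpi, mouse B had the lowest share of reads in cells and the highest mitochondrial share (9.66%). Mouse C of that day had the highest share of reads in cells (91.8%) and the lowest mitochondrial share (4.22%). This order was not kept throughout. At 7 dpi, mouse C had the lowest share of reads in cells (66.5%), but mouse A had the highest mitochondrial share (9.04%). Uninjured D, the uninjured mouse with the low mitochondrial share, had the lowest share of reads assigned to cells, 44.2%. It also had the deepest library of all, with 117596 reads per cell and a sequencing saturation of 87.4%. The 95th percentile of single capillary cells reached 29.3% in the highest mouse, next to the 30% limit of the filter on cells. The part of these values in the mitochondrial result was not tested.

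Total transcripts and genes per capillary cell did not pass. The median capillary cell of uninjured mice held 2561 to 4276 UMIs and 1175 to 1721 genes. The lowest group was 2 dpi with 2300 to 3438 UMIs, and the highest was 7 dpi with 3945 to 4176 UMIs and 1796 to 1860 genes. The mean at 7 dpi was 1.30 times that of uninjured mice on the log2 scale (adjusted p = 0.441 for UMIs and 0.404 for genes over the time course, permutation F test). When genes were read at a fixed number of UMIs, the time course passed (adjusted p = 0.0279, permutation F test), with 7 dpi above uninjured by 0.11 on the log2 scale.

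Transcription factor genes, which encode the proteins that switch other genes on and off, supplied 3.92 to 5.20% of UMIs in uninjured capillary cells. The mice at 2 dpi held 5.33%, 5.48% and 5.42%, and those at 7 dpi 5.38%, 5.68% and 5.33%, both without overlap with uninjured mice. At each of these days, 5 of the 16 labels had no overlap in this share. The time course did not pass (adjusted p = 0.0999, permutation F test), nor did these days (adjusted p = 0.143 at each, exact permutation test). At 3.5 and 5 dpi, capillary cells had the largest positive difference of the 16 labels in this share, 0.494 and 1.25 points, as a description of these means. Arterial cells had a similar rise at 5 dpi, from 5.07% ± 0.652 (n = 4) before injury to 6.31% ± 0.664 (n = 3). In arterial cells the time course passed (adjusted p = 0.0271, permutation F test), as it did in 7 of the 16 labels.

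Ribosomal protein genes, whose products build the translation machinery, supplied 7.29 to 8.89% of UMIs in uninjured mice and 9.01 to 11.9% at 3.5 dpi, the day at which the groups did not overlap. The difference of 2.43 points did not pass at that day (adjusted p = 0.143, exact permutation test). Its unadjusted p of 0.0286 was the smallest possible, and a lone day at that floor cannot pass, so this test could not decide. The time course did not pass either (adjusted p = 0.328, permutation F test). The protein coding share was 86.1% ± 1.23 (n = 4) in uninjured mice and 91.0% ± 1.39 (n = 4) at 3.5 dpi, also without overlap (adjusted p = 0.0716 over the time course, permutation F test). At 3.5 dpi, 15 of the 16 labels had no overlap in the protein coding share and 7 of 16 had none in the ribosomal protein share. At 7 dpi both were near their uninjured values, at 8.13% ± 0.325 and 87.0% ± 1.14 (n = 3).

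Noncoding classes were small and did not pass. Long intergenic noncoding RNA (lincRNA) genes ran from 0.840% in 1 dpi C to 2.52% in 5 dpi C, a spread that crossed all groups (adjusted p = 0.899, permutation F test). Antisense genes lay at 0.104% ± 0.0172 (n = 4) before injury, and 1 dpi had the lowest mean, 0.0815% ± 0.0187 (n = 4; adjusted p = 0.529, permutation F test). The class that the tables call bplncRNA had a median of 0 in 10 of 21 mice and at most 0.0181% in the others (adjusted p = 0.189, permutation F test). The snoRNA, miRNA and snRNA classes had a median of 0 in every mouse, and their means over cells were under 0.01% in each group.

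**Figure D3:**
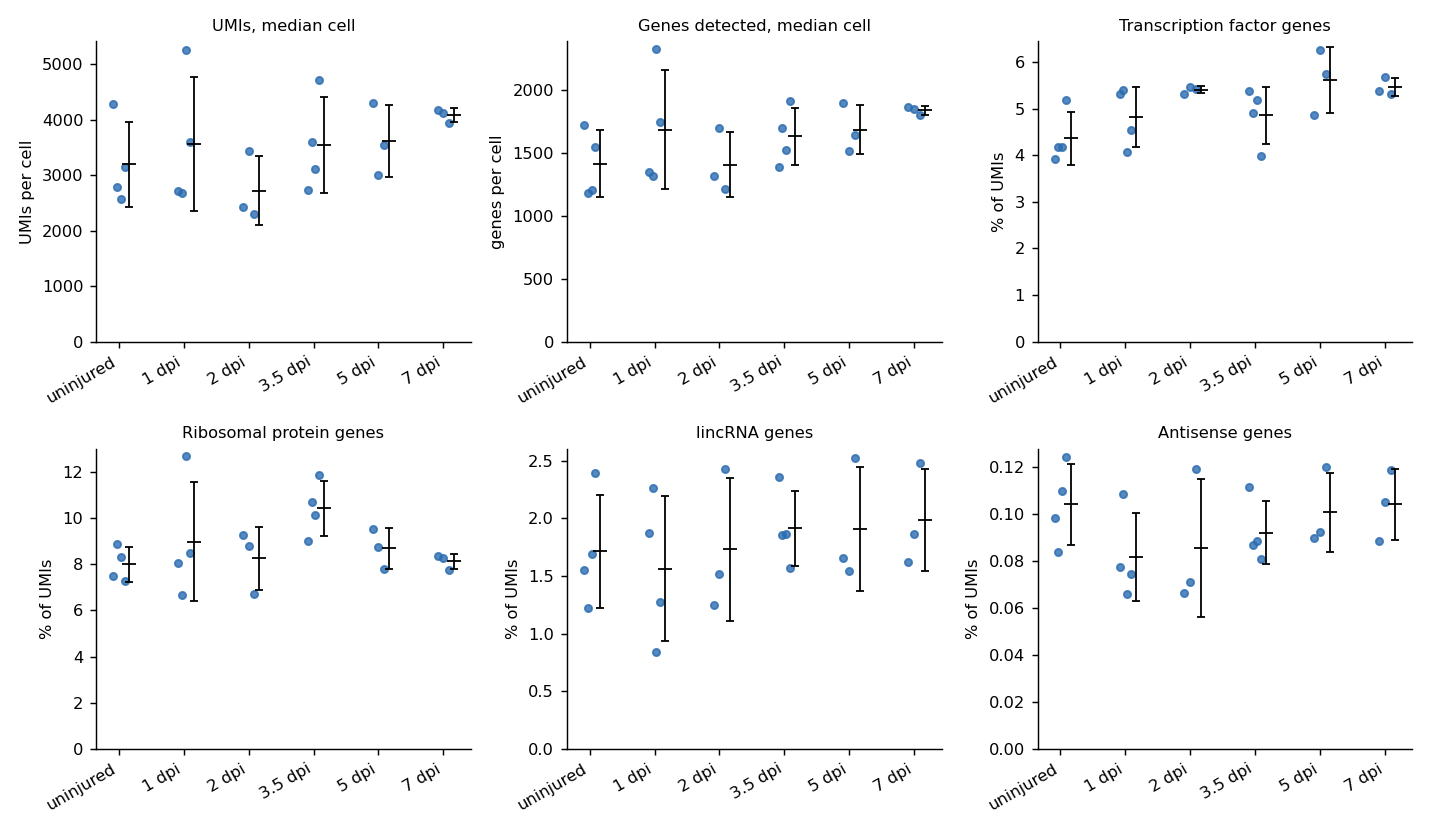
UMIs, genes and the percent of UMIs from 4 gene classes in the median capillary cell of each mouse (blue points), with the group mean and SD (black). None of the 6 measures passed over the time course, and the ribosomal protein share at 3.5 dpi (9.01 to 11.9%) lay above the uninjured mice (7.29 to 8.89%).

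Capillary cells were then set beside the other cells of the same mouse, which share its library and depth. The labels rest on the expression of these same cells, so the differences in level are given as a description, with no test. Capillary cells were the transcript-poor cells of the vessel wall. Their median number of UMIs was lower than that of arterial cells in 21 of 21 mice, by a mean of -0.68 on the log2 scale (SD 0.33). It was lower than that of venous cells in 19 of the 19 mice with at least 10 venous cells (-1.15, SD 0.35) and than that of smooth muscle cells in 20 of 21 mice (-1.42, SD 0.59).

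Gene class shares of capillary cells also differed from those of other cells, in ways that depended on the comparator. Against venous cells, the ribosomal protein share was lower in 19 of 19 mice, at 8.59% against 14.1% (difference -5.51 points, SD 1.54). The transcription factor share was higher than in venous cells in 17 of 19 mice, by 1.09 points (SD 0.656). Against arterial cells, the transcription factor share was lower in 19 of 21 mice, at 5.03% against 5.48%, which places capillary cells between the arterial and the venous level. Against smooth muscle cells, the lincRNA share was lower in 21 of 21 mice (1.79% against 2.80%). Against all other cells of the mouse, capillary cells had higher mitochondrial, transcription factor and antisense shares in 21 of 21 mice and a lower protein coding share in 21 of 21. That pool mixes all other labels. The mitochondrial share was higher than in arterial cells in 12 of 21 mice, than in venous cells in 13 of 19 and than in smooth muscle cells in 7 of 21. For the antisense share these counts were 18 of 21, 18 of 19 and 9 of 21.

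Whether the difference to the neighbours changed with injury was tested over mice, and it passed in 4 of 40 pairs of comparator and measure (10%). By single days against uninjured, 8% of 200 such comparisons passed. The heat shock protein share of capillary cells was at the level of the other cells of the mouse before injury, with a difference of -0.00687 points ± 0.0443 (n = 4). It was above them in each of the 17 injured mice. At 1 dpi the difference was 0.498 points ± 0.280 (n = 4), at 3.5 dpi 0.385 ± 0.0786 (n = 4), and at 7 dpi 0.149 ± 0.0307 (n = 3). The change over the time course passed (adjusted p = 0.0438, permutation F test). The pool of other cells was not of the same make-up before and after injury. Before injury capillary cells were 45.3% of all cells and 46.5% of non-immune cells, against 5.64% and 23.4% at 3.5 dpi. The part of this shift in the change was not tested.

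Smooth muscle cells had the higher heat shock protein share in uninjured muscle, 1.03% ± 0.0885 (n = 4), with capillary minus smooth muscle differences from -0.538 to -0.305 points in the 4 mice. After injury the mean differences ran from -0.0637 points at 7 dpi to 0.128 points at 3.5 dpi (adjusted p = 0.0412, permutation F test). Against arterial cells the change did not pass (adjusted p = 0.357, permutation F test). Against venous cells the time course did not pass (adjusted p = 0.182, permutation F test), but the difference was higher than before injury, without overlap, at 3.5, 5 and 7 dpi, by 0.299, 0.198 and 0.195 points (adjusted p = 0.0476 at each, exact permutation test). Against smooth muscle cells and against all other cells, each of the 5 days passed (adjusted p = 0.0286 at each, exact permutation test). Arterial cells, at 0.849% ± 0.296 before injury and 1.15% ± 0.250 at 1 dpi (n = 4 each), varied more between uninjured mice than capillary cells did.

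Both heat shock results were close to the threshold. Without 1 mouse, the difference to other cells lost its call for 16 of the 21 mice left out and kept it without 1 dpi A, 1 dpi B, 2 dpi A, 2 dpi C or 3.5 dpi D, with adjusted p from 0.0042 to 0.101 (permutation F test). The difference to smooth muscle cells lost its call for 11 of 21 mice left out, namely each uninjured mouse, 1 dpi C, 2 dpi B, 3.5 dpi A to C and 5 dpi A and B (adjusted p from 0.0042 to 0.0992 over all omissions, permutation F test).

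The mitochondrial share of capillary cells exceeded that of arterial cells in 4 of 4 uninjured mice, by 2.70 points ± 1.57. At 1, 3.5 and 5 dpi the difference was 0.0291 ± 0.972 (n = 4), -1.27 ± 0.914 (n = 4) and -0.938 ± 1.16 points (n = 3). The time course of this difference passed (adjusted p = 0.0396, permutation F test), as did these 3 days against uninjured (adjusted p = 0.0476 at each, exact permutation test). Against smooth muscle cells the difference turned from 3.77 points ± 2.53 (n = 4) before injury to -2.55 ± 1.19 (n = 4) at 3.5 dpi (adjusted p = 0.0438, permutation F test). The arterial call was lost without uninjured B or C, 2 dpi B, 3.5 dpi A or C, or 5 dpi A or B (adjusted p from 0.0096 to 0.0732 over all omissions, permutation F test). The smooth muscle call was kept without uninjured D, 1 dpi A, 1 dpi B or 7 dpi C and lost without any other mouse (adjusted p from 0.0228 to 0.137, permutation F test). With means over cells neither passed (adjusted p = 0.142 and 0.0561, permutation F test). Under the stricter filter neither passed, and the 3.5 dpi change of the difference went from -3.97 to -2.41 points against arterial cells (adjusted p = 0.058, permutation F test) and from -6.32 to -2.73 points against smooth muscle cells (adjusted p = 0.143, permutation F test).

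**Figure D4:**
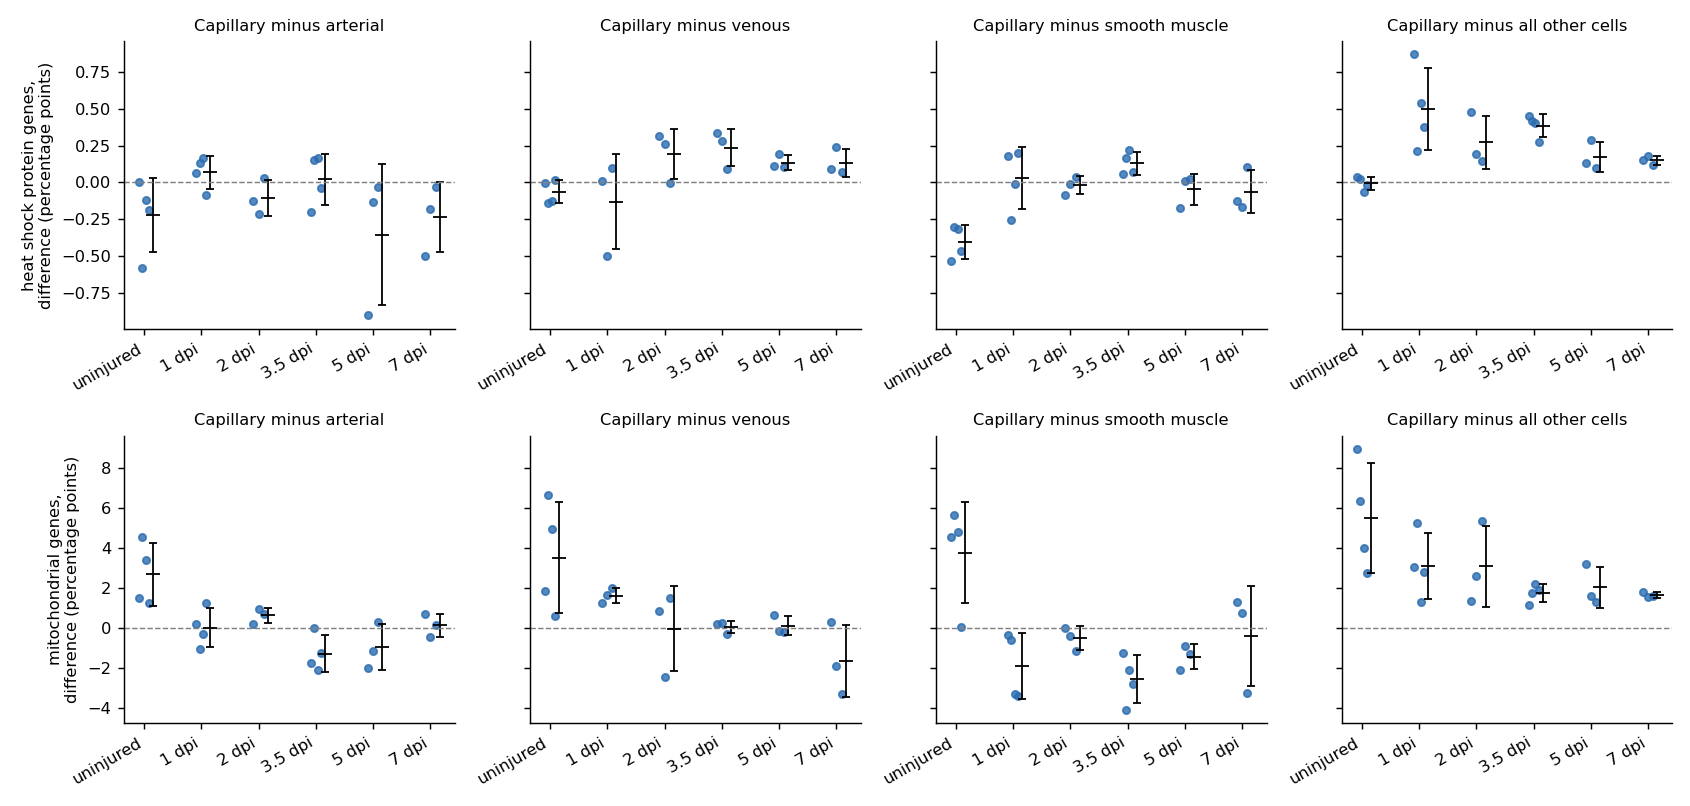
Share of heat shock protein genes (top) and mitochondrial genes (bottom) in the median capillary cell minus that in the median arterial, venous, smooth muscle or other cell of the same mouse, in percentage points (blue points, mice; black, mean and SD; dashed line, no difference). The heat shock protein difference to all other cells lay near 0 before injury and above 0 in all 17 injured mice. The mix of cell types in this pool changed with injury.

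Within a mouse, single capillary cells varied widely. The median lower and upper quartiles over the 21 mice were 2229 and 5410 UMIs, 5.53% and 10.9% mitochondrial and 0.649% and 1.42% heat shock protein. Cells with a higher mitochondrial share had a lower heat shock protein share, with a Spearman rho across cells from -0.522 to -0.156 and a median of -0.398 over 21 mice. The heat shock protein and transcription factor shares rose together in 21 of 21 mice (median rho 0.545), while the lincRNA and ribosomal protein shares ran in opposite directions in 21 of 21 (median rho -0.518). These are descriptions across cells of 1 library that share ambient RNA and depth, and the shares of 1 cell draw on the same UMI total.

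The capillary label was mostly shared by the other integrations. Of the 12614 cells, 12052 (95.5%) were capillary by BBKNN as well and 12497 (99.1%) by Scanorama, and 12011 (95.2%) carried the label in all 3 integrations. BBKNN called 462 of the remainder arterial. In the other direction, 95.7% of the 12595 BBKNN capillary cells but 82.7% of the 15107 Scanorama capillary cells were capillary by Harmony, since Scanorama drew in 1685 cells that Harmony called arterial and 559 that it called venous.

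By mouse, the agreement with BBKNN averaged 96.5% ± 3.68 (n = 4) in uninjured muscle and was lowest at 2 dpi, with 92.1% ± 4.03 (n = 3). The time course of this agreement did not pass (adjusted p = 0.245, permutation F test). The agreement with Scanorama was 97.6% or more in every mouse (adjusted p = 0.105, permutation F test). Over all mice pooled, the cells that BBKNN called arterial had a median transcription factor share of 5.65% and a heat shock protein share of 0.992%, against 4.77% and 0.767% in cells that it also called capillary. The pooled medians mix days and are given as a description.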

How the data were processed

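Per-cell tables of 21 mice were analysed, grouped by the injury label. The authors aligned reads to mm10 with Cell Ranger 3.1.0, removed ambient RNA with SoupX, filtered cells in Seurat (3.1.5 per the submitters' processing notes), removed doublets with DoubletFinder and labelled cells after integration with Harmony, BBKNN and Scanorama. The UMI totals the authors deposited are expected counts, non-whole after SoupX and not normalized. Deposited percent values are shares of a cell's corrected UMIs, or library values from Cell Ranger. Deposited read numbers per library are counts from Cell Ranger. The fraction values the authors deposited, SoupX contamination and the DoubletFinder score, entered no test.

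Cells were counted by mouse and label. Medians over at least 10 cells per mouse and label were taken, with UMIs and genes as log2 values and percentages as they were. Shares were arcsine square root transformed. The mouse was the unit of every test, and the labels and methods describe separately injured animals. The 6 groups were compared by a permutation F test with 100000 resamples (smallest p 1e-05), single days by a two-sided exact permutation test of the means. P-values were adjusted by the Benjamini-Hochberg method over all labels (shares, 23 labels; measures, 160 pairs of label and measure), over the 4 vessel quantities, over the 5 days of a measure or over the 40 within-mouse pairs, at a threshold of 0.05. Single shares carry exact Clopper-Pearson 95% intervals. All 10 measures are named, whatever their result; beside capillary cells, the text names arterial, venous and smooth muscle cells and all other cells as 1 pool, and, chosen after its values were seen, the type IIb myonuclei label.

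Alternatives were other denominators, labels and scales, a centred log ratio with 0.5 cells added, a stricter filter (at least 1000 genes, at least 2000 UMIs, at most 15% mitochondrial), at least 30 cells, means, genes at fixed UMIs or divided by saturation, a block on the replicate letter, and the omission of single mice. Labels given before the final filter and percentages of non-mitochondrial UMIs were added after seeing the data, as were the stricter filter and means for single days. The tables held no cell cycle call, and 99.6% of capillary cells shared 1 cluster number, so sub-clusters were not tested. The members, measures and tests were chosen with earlier results of these data known. The scripts used Python 3.11.15, numpy 2.4.6, pandas 2.3.3, scipy 1.17.1 and matplotlib 3.10.9 and were tested on simulated data.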

Additional observations from a re-analysis of the deposited data

Results flagged for a closer look

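Of 45 groups of 4 mice examined, 3 held a mouse whose gap to its neighbour exceeded Dixon's 95% critical value. Chance alone gives such a gap in 1 in 20 independent groups. These groups shared mice and cell counts, so their number cannot be set against that rate. Uninjured B was the lowest of its group in the share of endothelial cells, at 73.4% against 85.5 to 87.8%, and in the log2 ratio of capillary to venous cells, at 3.56 against 5.14 to 5.32. Mouse 1 dpi D had a bplncRNA share of 0.00815%, where the other 3 mice of that day had a median of 0, so that any value above 0 would have been flagged.

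The difference between capillary cells and other cells of the same mouse changed over the time course in 4 cases by a permutation F test: the mitochondrial share against arterial cells (adjusted p = 0.0396) and against smooth muscle cells (adjusted p = 0.0438), and the heat shock protein share against smooth muscle cells (adjusted p = 0.0412) and against all other cells (adjusted p = 0.0438).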

How the results depend on the processing

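The capillary share of all cells kept its fall and its call in 29 of 30 alternatives; with non-immune cells as denominator the 3.5 dpi difference was -23.1 points (adjusted p = 0.136, permutation F test). The share of endothelial cells passed under none of 27 alternatives (differences at 3.5 dpi from -0.689 to 11.2 points, adjusted p from 0.051 to 0.981, permutation F test). The number of measures that passed over the time course was 2, against 1 under the stricter filter and 1 with means. The number of days and measures that passed against uninjured was 5, against 0 under the stricter filter, 0 with means and 0 with non-mitochondrial UMIs. It ranged from 0 to 5 when 1 mouse was left out, and it was 0 without any 1 uninjured mouse, where 3 against 3 mice cannot give a p below 0.1. The 4 changes in the difference to other cells were 0 under the stricter filter and ranged from 0 to 5 with 1 mouse left out. The cause of these losses was not tested. With at least 30 cells the arterial, venous and smooth muscle comparisons could not be run for lack of cells, and 1 change passed, that of heat shock protein against all other cells (adjusted p = 0.0335, permutation F test). BBKNN agreement at 3.5 dpi minus uninjured ranged from -2.52 to 0.0904 points with 1 mouse left out. It passed without uninjured B (adjusted p = 0.0347, permutation F test). Scanorama agreement ranged from -0.0543 to 0.481 points and passed without uninjured B, where its sign turned to -0.0543 (adjusted p = 0.0227, permutation F test), and without 2 dpi A (adjusted p = 0.0365). By the permutation F test, the transcription factor share passed without uninjured D (adjusted p = 0.0494) or 5 dpi A (adjusted p = 0.0479), the protein coding share without 1 dpi B (adjusted p = 0.0245) or 2 dpi C (adjusted p = 0.0397) and with at least 30 cells (adjusted p = 0.0494), and the ribosomal protein share without 1 dpi C (adjusted p = 0.0475).

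The replicate letters did not pair the mice: 48 pairs of mice with the same letter had correlations of their deviations from -0.682 to 0.620, and 5 of 21 mice correlated best with their own letter. With the letter as a replicate block, 2 measures passed, and the capillary share passed with adjusted p = 0.0107 by the permutation F test.

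The stricter filter kept 31.4% ± 27.4 of capillary cells in uninjured mice (n = 4) and group means of 63.9 to 75.4% after injury, so it removed unequal parts of the groups. The number of mice sets the smallest exact p at 0.0286 for 4 against 4 or 4 against 3. A lone day at this floor cannot pass after adjustment over the 5 days.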
